A study of Mus musculus with 25 samples.

Results

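The insulin-like growth factor (IGF) system was followed through 7 groups of mouse libraries by way of 10 genes: the ligand genes Igf1 and Igf2, the receptor genes Igf1r and Igf2r, and the binding protein genes Igfbp2, Igfbp3, Igfbp4, Igfbp5, Igfbp6 and Igfbp7. The genes were taken by symbol from a list, and all 10 were found among the 24984 genes of the count table. The libraries came from a study of how the dose of an oncogenic Ras allele shapes liver tumours. BMEL cells are bipotential progenitors of mouse embryonic liver (C57B/6_C3H in the labels, C57BL/6xC3H in the methods), here of 1 clonal parental line. BMEL WT cells carried an empty vector. RasLOW and RasHIGH cells carried human H-Ras G12V with a Venus or mCherry reporter on the same transcript and were polyclonal populations sorted by fluorescence, with overlapping reporter intensities. Each of these 3 groups held 3 cultures, and the culture medium supplied 30 ng/mL IGFII, 10 µg/mL insulin and 50 ng/mL EGF. The other 16 libraries were sorted from the tumours of 4 athymic nude mice that received Ras-transformed BMEL cells in the liver: reporter-positive tumour cells and reporter-negative stromal cells, from the liver tumour and from the peritoneal tumour of each mouse. Athymic nude mice lack most T cells, and the labels do not say which Ras population had been injected.

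IGF1 and IGF2 are small secreted hormones that resemble insulin. Both signal for growth and survival through the tyrosine kinase receptor encoded by Igf1r, whereas the receptor encoded by Igf2r binds IGF2, takes it up and delivers it to lysosomes without sending a growth signal. Most IGF outside cells is held by binding proteins, which prolong its life in the circulation and keep it from the receptor or bring it there, and hepatocytes under growth hormone are the main source of circulating IGF1 in the adult.

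Total counts per library ran from 20818989 to 51241336, and 3 counts corresponded to between 0.0585 and 0.144 CPM (counts scaled to library size), a floor that covers counting error only. Levels are given as CPM after one scaling over all 25 libraries, as mean ± SD. The sorted fractions also held transcripts of markers chosen for other cell types, and the source of these was not tested. The summed level of 5 progenitor and epithelial markers (Krt8, Krt18, Krt19, Epcam, Cdh1) ran from 7602 to 10770 CPM in tumour cells, but also from 1216 to 1551 CPM in liver stroma and from 675 to 1106 CPM in peritoneal stroma. Epcam itself was at or under the floor in RasLOW, RasHIGH and tumour cells. The summed level of 6 fibroblast markers (Col1a1, Col1a2, Col3a1, Dcn, Lum, Pdgfra) was 4059 to 8222 CPM in liver stroma and 53700 to 81550 CPM in peritoneal stroma. The peritoneal tumour cell library of mouse 1 stood apart, with 1440 CPM of fibroblast markers against a median of 315.5 CPM in its group, and with 210 CPM of 6 leukocyte and macrophage markers against a median of 29.1 CPM. For the ligand, receptor and binding protein genes named above, the fits were repeated without this library. Where that moved a reported fitted fold change by over 1.5 times or changed its call, the value without the library is given too. Fits of the other pathway genes given below were not repeated in this way. In such bulk samples, fewer cells of a type and less RNA per cell cannot be told apart.

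The ligand genes were read from the stroma and hardly at all from the tumour cells or the cultures. Igf1 was at 41.6, 50.6, 36.8 and 22.7 CPM in the liver stroma of mice 1 to 4 and at 194, 197, 212 and 136 CPM in their peritoneal stroma. In liver tumour cells it was at 0.225, 0.809, 0.449 and 0.286 CPM, and in peritoneal tumour cells at 6.15, 0.162, 0.648 and 0.368 CPM. No tumour cell library reached the lowest stromal library at either site, and the single raised tumour cell value was that of mouse 1. In the 9 cultures Igf1 had 4 counts in all in BMEL WT, 0 in RasLOW and 3 in RasHIGH.

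Igf2, an imprinted gene that is highly active in the fetal liver, was much lower than Igf1 in the stroma. It was at 2.28, 2.52, 3.39 and 6.13 CPM in liver stroma and at 10.1, 9.33, 6.52 and 5.48 CPM in peritoneal stroma. In liver tumour cells there were 6 counts in the 4 libraries together, and in peritoneal tumour cells 42 counts. The cultures had 9 counts of Igf2 in BMEL WT, 2 in RasLOW and 10 in RasHIGH, so that this fetal gene was close to undetected in these embryonic liver progenitors. The antisense transcript Igf2os overlaps Igf2, and the strand setting of the counting is not given in the sources used here, so that reads of the pair cannot be told apart. Per kilobase of annotated exon, the summed level of both ligand genes was 4.48 ± 0.890 CPM in liver stroma and 20.1 ± 3.62 CPM in peritoneal stroma, against 0.0517 ± 0.0244 CPM in liver tumour cells and 0.241 ± 0.340 CPM in peritoneal tumour cells. The last sum was 0.0714 ± 0.0184 CPM in the 3 mice other than mouse 1.

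**Figure D1:**
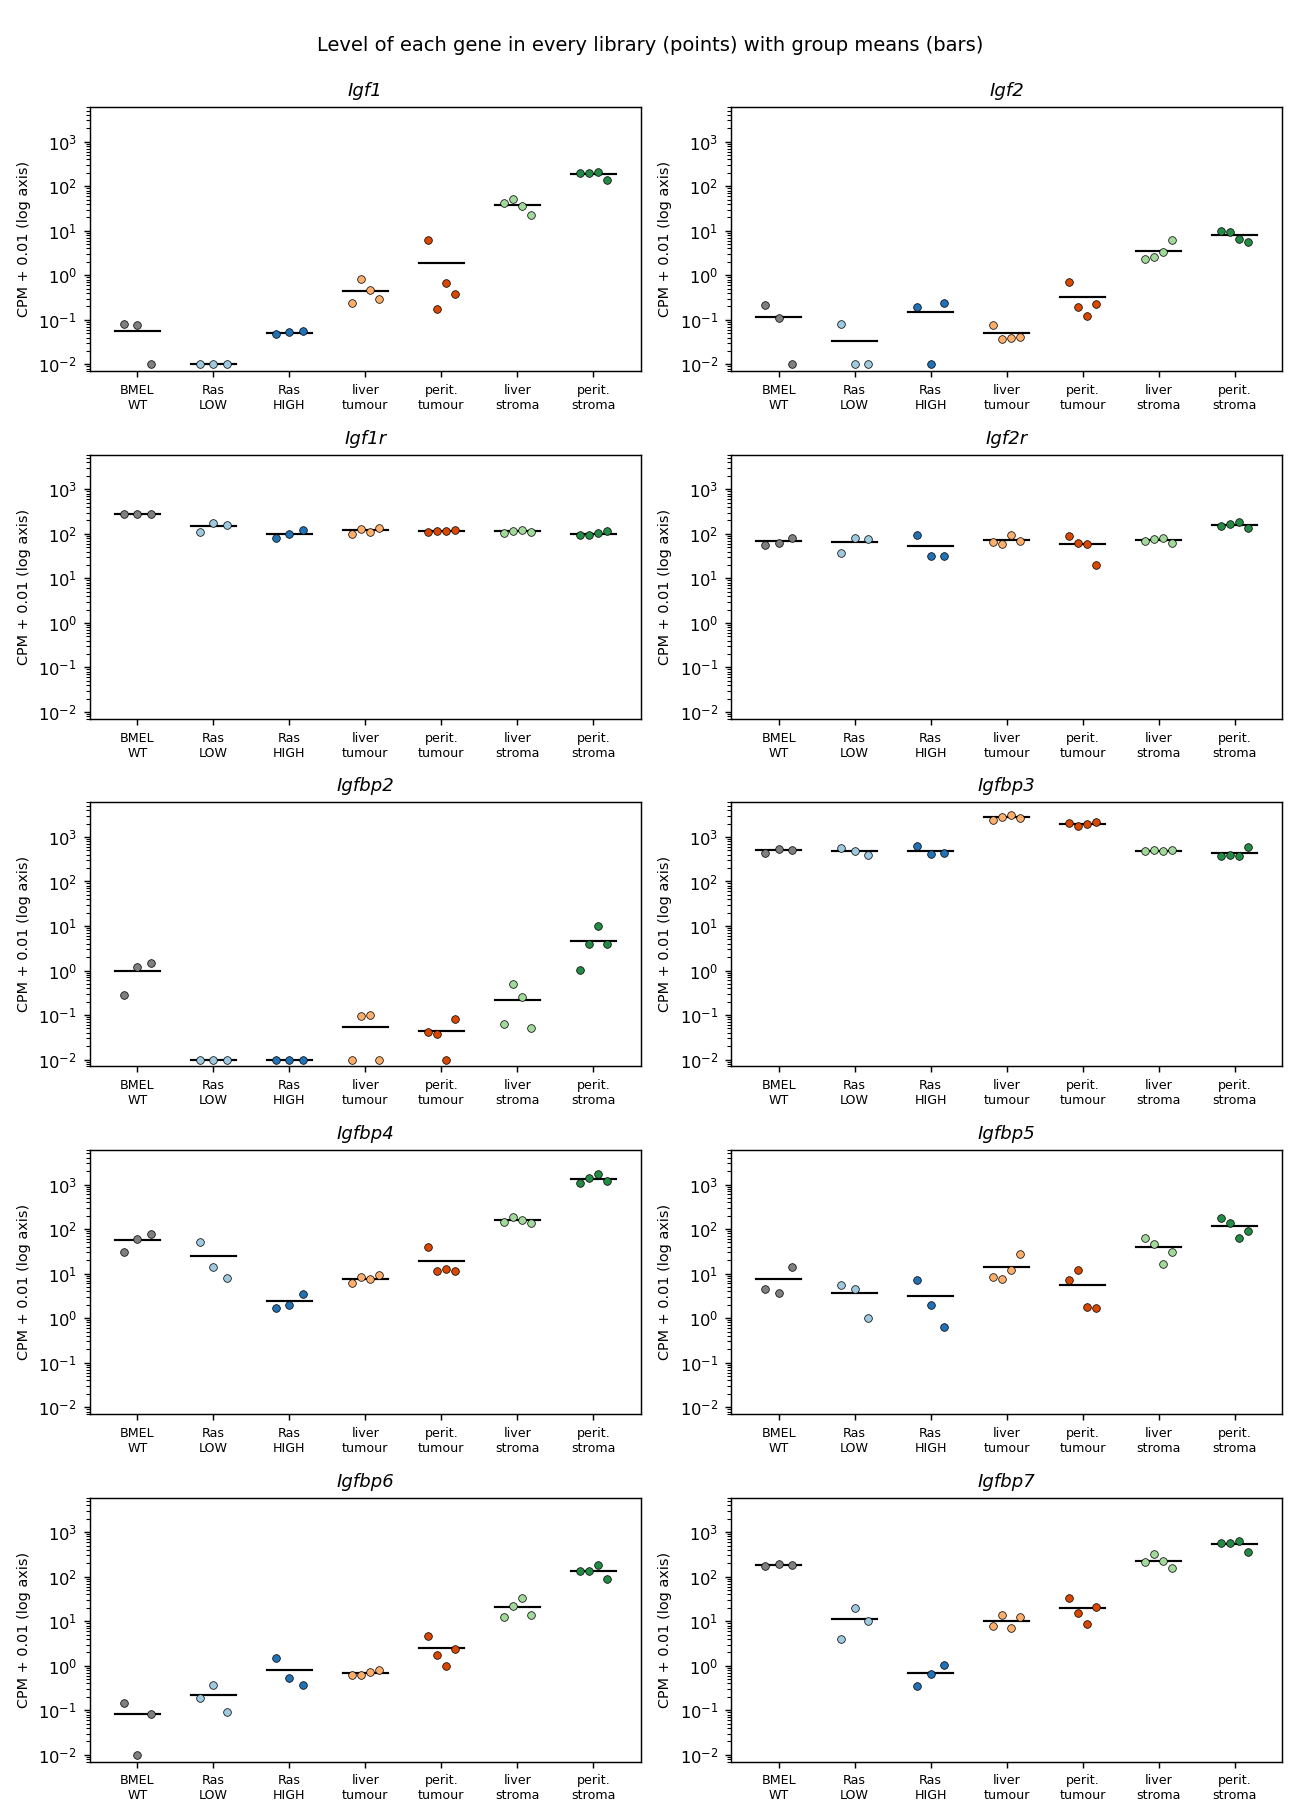
Level of each gene in CPM (plus 0.01, on a logarithmic axis) in each of the 25 libraries, with 1 point per library and a bar at the mean of each group of 3 cultures or 4 mice. Igf1 and Igf2 sit highest in the 2 stromal groups, Igfbp3 highest in the 2 tumour cell groups at means of 2738 and 1962 CPM, and Igf1r highest in BMEL WT at 278 CPM.

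Tumour cells were then compared with the stroma of the same site, which asks in which compartment each gene is transcribed. In the liver 9 of the 10 genes had enough counts to be tested and 7 passed the thresholds used for sorted cells, namely a log2 fold change beyond 1 in either direction with p under 0.05 before adjustment in edgeR's quasi-likelihood test. 6 were lower in tumour cells and 1 was higher. In the peritoneum all 10 were tested, of which 8 were lower and 1 was higher. Both sites differed widely between compartments, with 44.0% of all tested genes past the same thresholds in the liver and 43.7% in the peritoneum. Among the tested members, the median log2 fold change was -4.35 in the liver and -4.65 in the peritoneum, against 0.00 and 0.07 over all genes tested.

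Igf1 was lower in tumour cells by a log2 fold change of -6.42 ± 0.36 (SE, adjusted p = 1.12e-08, n = 4 and 4 by edgeR) in the liver and of -6.58 ± 1.02 (adjusted p = 0.000373 by edgeR) in the peritoneum. Without the peritoneal tumour cells of mouse 1 the latter became -8.76. Relative to the stroma of the same mouse, the Igf1 level of liver tumour cells was between 0.541% and 1.60%, where the fibroblast marker sum was between 0.480% and 1.48% and the leukocyte and macrophage sum between 0.480% and 0.727%. In the peritoneal tumour cells of mouse 1, Igf1 was at 3.17% of its stromal level, beside 2.68% for the fibroblast sum and 3.59% for the leukocyte and macrophage sum. In the other 3 mice Igf1 was between 0.0821% and 0.306%, beside 0.362% to 0.398% for the fibroblast sum. In the peritoneum the Igf1 level of the tumour cell fraction was thus highest in the mouse with the highest stromal marker sums, and the part of carried-over stromal RNA in it was not tested.

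Igf2 was lower in tumour cells by -6.31 ± 0.51 on the log2 scale in the liver, where no tumour library had more than 3 counts, so that its level in liver stroma was at least 37.1-fold higher when the tumour cells are set at the floor of 3 counts per library. In the peritoneum the log2 fold change of Igf2 was -4.60 ± 0.54 (adjusted p = 7.39e-05 by edgeR), and -5.51 without the tumour cells of mouse 1.

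Igfbp3 was the exception among the 10 genes. It encodes the main carrier of IGF in the circulation, which also slows growth in many cultured cells. It was at 2369, 2811, 3126 and 2645 CPM in liver tumour cells of mice 1 to 4, against 477, 501, 474 and 511 CPM in their stroma. In the peritoneum it was at 2045, 1720, 1969 and 2114 CPM in tumour cells and at 364, 400.2, 382 and 596 CPM in stroma. Every tumour cell library was above every stromal library at both sites, with log2 fold changes of 2.49 ± 0.11 (adjusted p = 1.24e-09 by edgeR) in the liver and 2.27 ± 0.17 (adjusted p = 7.14e-06 by edgeR) in the peritoneum. The stromal level of Igfbp3 was between 15.2% and 20.1% of that of the tumour cells of the same mouse in the liver, where the stromal sum of the progenitor and epithelial markers was between 15.2% and 16.9% of the tumour sum. In the peritoneum the stromal share of Igfbp3 was between 17.8% and 28.2%, above the 7.27% to 12.0% of the marker sum in each of the 4 mice. Most of that sum is keratin transcripts, and its members were uneven. The stromal share of Cdh1 was between 17.5% and 37.0% in the peritoneum, above that of Igfbp3 in mice 2 to 4, and between 34.9% and 44.6% in the liver. Epcam was higher in stroma than in tumour cells, at 3.13 to 6.52 CPM in peritoneal stroma. How much of the stromal Igfbp3 came with progenitor RNA was not tested.

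The other binding protein genes were stromal. Igfbp4, whose product mostly restrains IGF action until it is cleaved by the protease PAPP-A, was at 6.14, 8.20, 7.37 and 9.07 CPM in liver tumour cells and at 148, 189, 161 and 135 CPM in liver stroma. In the peritoneum it was at 39.6, 11.7, 12.8 and 11.7 CPM in tumour cells and at 1106, 1424, 1750 and 1183 CPM in stroma. The log2 fold changes were -4.35 ± 0.15 (adjusted p = 1.68e-10 by edgeR) and -6.07 ± 0.51 (adjusted p = 1.19e-05 by edgeR), and the groups did not overlap at either site. Without the tumour cells of mouse 1 the peritoneal value of Igfbp4 was -6.81.

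Igfbp7, which encodes a secreted protein with low affinity for IGF that is deposited along vessels, was at 7.81, 13.6, 7.10 and 12.2 CPM in liver tumour cells and at 213, 325, 220.4 and 159 CPM in liver stroma. In the peritoneum the values were 33.3, 15.3, 8.48 and 20.5 CPM in tumour cells and 574, 566, 644 and 368 CPM in stroma. Its log2 fold changes were -4.49 ± 0.27 and -4.70 ± 0.43. Tumour cells of both sites thus lay far below stroma in Igfbp7, without overlap.

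Igfbp6, whose product prefers IGF2 over IGF1, was at 0.608 to 0.796 CPM in liver tumour cells and at 12.2 to 34.1 CPM in liver stroma, a log2 fold change of -4.89 ± 0.35. In the peritoneum it was at 0.972 to 4.66 CPM in tumour cells and at 89.0 to 185 CPM in stroma, a log2 fold change of -5.70 ± 0.49, or -6.34 without the tumour cells of mouse 1. Igfbp5, the most conserved of the family, differed least between the compartments in the liver, at 8.53, 7.67, 11.9 and 27.6 CPM in tumour cells and 62.5, 46.3, 16.8 and 30.8 CPM in stroma. Within a mouse its tumour level was 13.6% and 16.6% of the stromal level in mice 1 and 2, but 71.0% and 89.7% in mice 3 and 4, and the 2 groups overlapped (log2 fold change -1.49 ± 0.45, adjusted p = 0.00920 by edgeR). In the peritoneum no tumour library reached a stromal library (log2 fold change -4.26 ± 0.70, or -4.97 without the tumour cells of mouse 2). Igfbp2 lies next to Igfbp5, tail to tail, on chromosome 1 with 5458 bases between them (NCBIM37). It was at 1.03, 3.86, 9.78 and 3.89 CPM in peritoneal stroma, and no library of peritoneal tumour cells had more than 2 counts, so that the stromal level was at least 41.0-fold higher against the same floor, or at least 25.8-fold without the stroma of mouse 3. It had too few counts to be tested between the compartments of the liver tumour.

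**Figure D2:**
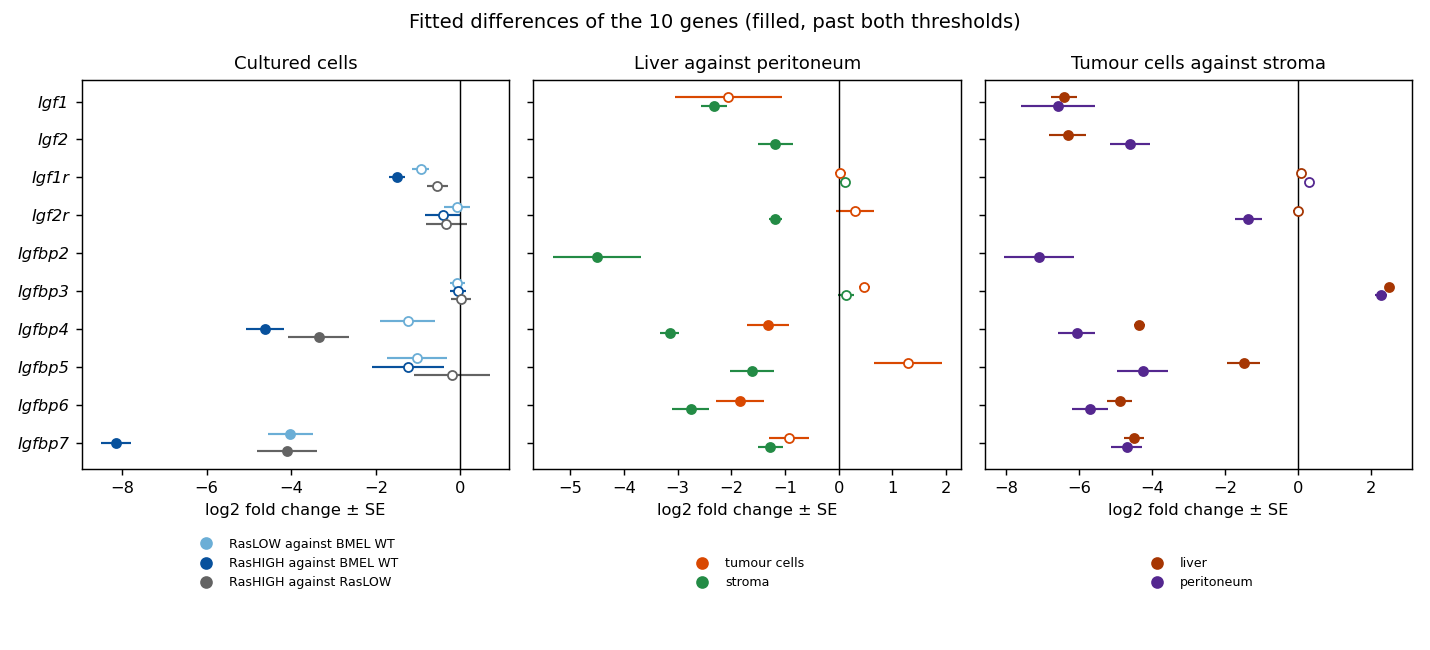
Fitted log2 fold change of each gene (points) with its standard error (bars) in 7 comparisons, the first-named group over the second, with filled points past both thresholds of the comparison. In the right panel Igfbp3 lies to the right of 0 at 2.49 and 2.27, whereas Igf1, Igf2, Igfbp4, Igfbp5, Igfbp6 and Igfbp7 lie to the left in both organs.

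The promoters of Igfbp3 and Igf1 are shown because these genes marked opposite compartments. Each line gives the 250 bases before the gene's start from RefSeq (GRCm38.p6), read in the direction of transcription, at chr11:7213924-7214173 (minus strand) and chr10:87860861-87861110 (plus strand). Capitals mark matches, on either strand, to 4 motifs: the AP-1 motif TGANTCA and the Ets motif CCGGAA, which are bound by factors that act downstream of Ras, the Sp1 GC box GGGCGG and the TATA box TATAAA. The motifs did not overlap one another in these windows.
Igfbp3: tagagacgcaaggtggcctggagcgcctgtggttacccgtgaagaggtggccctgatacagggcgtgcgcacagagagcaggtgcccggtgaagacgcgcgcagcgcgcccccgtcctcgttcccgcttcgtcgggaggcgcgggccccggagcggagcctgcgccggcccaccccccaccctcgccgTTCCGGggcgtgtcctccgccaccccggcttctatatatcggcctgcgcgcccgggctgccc
Igf1: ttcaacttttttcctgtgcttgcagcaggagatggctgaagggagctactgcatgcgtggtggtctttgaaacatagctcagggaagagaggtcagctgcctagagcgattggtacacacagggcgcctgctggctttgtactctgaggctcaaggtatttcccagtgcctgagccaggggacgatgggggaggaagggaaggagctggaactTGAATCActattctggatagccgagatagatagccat
The Igfbp3 window was 73.2% G or C with 32 CpG dinucleotides, against medians of 52.4% and 6 over 32851 promoter windows of the same length, and it held 1 Ets match, which 12.0% of the windows hold. The Igf1 window was 52.8% G or C with 5 CpG dinucleotides and held 1 AP-1 match, 37 bases before the start, which 6.75% of the windows hold. These matches describe the letters only.

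The make-up of the binding protein transcripts was compared per kilobase of annotated exon, since the genes differ in length. Their summed level was 889 ± 101 CPM per kilobase in liver tumour cells, 654 ± 62.0 in peritoneal tumour cells, 438 ± 70.9 in liver stroma and 1304 ± 208 in peritoneal stroma. Igfbp3 supplied 98.3% ± 0.463 (SD, n = 4) of the sum in liver tumour cells and 95.9% ± 2.10 in peritoneal tumour cells. In liver stroma the leading genes were Igfbp7 with 42.5% ± 5.94, Igfbp3 with 36.5% ± 5.99 and Igfbp4 with 15.3% ± 0.323. In peritoneal stroma Igfbp4 led with 44.2% ± 3.67, followed by Igfbp7 with 33.9% ± 4.73, Igfbp3 with 11.1% ± 4.32 and Igfbp6 with 9.13% ± 1.39. The tumour cells thus held nearly a single binding protein transcript and the stroma a mixture, whose leading gene by mean share differed between the organs. In single libraries of liver stroma the share was 35.5% to 50.0% for Igfbp7 and 29.9% to 44.3% for Igfbp3. In peritoneal stroma it was 38.8% to 47.0% for Igfbp4 and 27.8% to 39.3% for Igfbp7. These ranges overlapped, and the order of the means did not hold in every mouse.

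**Figure D3:**
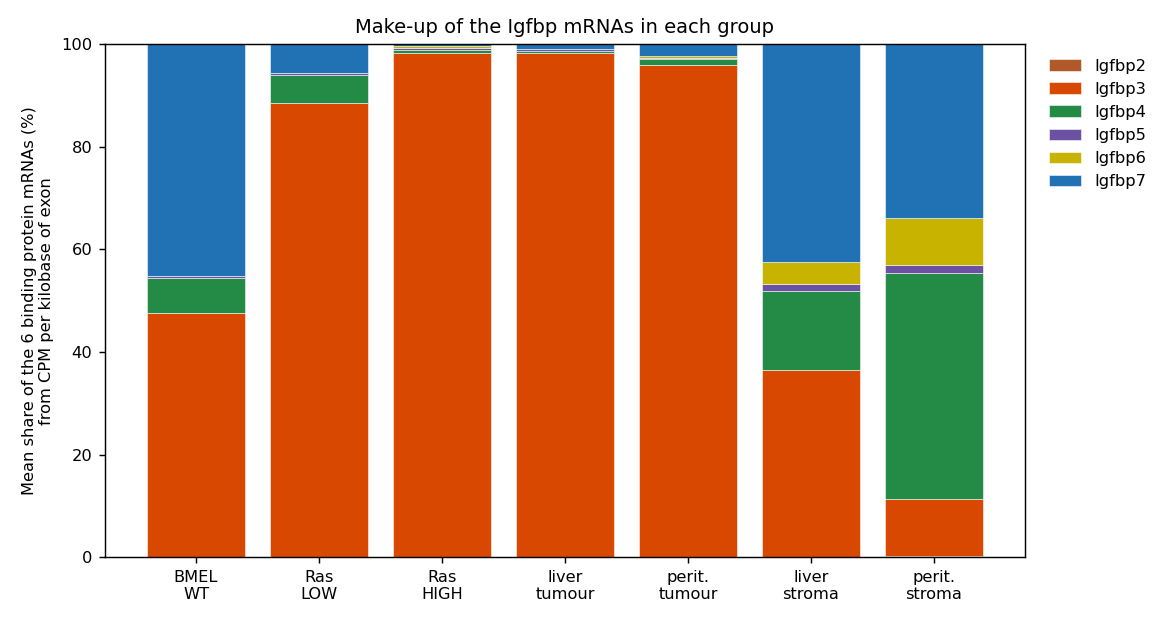
Mean share, in percent, of each of the 6 binding protein genes in their summed level (CPM per kilobase of annotated exon) in each group of 3 cultures or 4 mice. Igfbp3 takes 95.9% or more in both tumour cell groups and 98.2% in RasHIGH, while Igfbp7 takes 45.1% in BMEL WT and Igfbp4 44.2% in peritoneal stroma.

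Liver stroma was compared with peritoneal stroma to ask whether the environment of the tumour cells differed between the organs. All 10 genes were tested and 8 passed the thresholds, each of them lower in liver stroma, against 14.3% of all tested genes. The median log2 fold change of the members was -1.44, against 0.02 over all genes tested. Igfbp4 differed by -3.15 ± 0.18 (adjusted p = 4.04e-06 by edgeR), Igfbp6 by -2.76 ± 0.34 (adjusted p = 0.000261), Igf1 by -2.32 ± 0.24 (adjusted p = 7.76e-05) and Igfbp2, from 0.208 CPM in the mean of liver stroma, by -4.51 ± 0.82 (adjusted p = 0.00249). The Igfbp2 value was -5.38 without the liver stroma of mouse 2 and -3.86 without the peritoneal stroma of mouse 3. Within each mouse the peritoneal level of Igf1 was between 3.90 and 5.99 times the liver level, that of Igfbp4 between 7.49 and 10.9 times, and that of Igfbp6 between 5.41 and 10.9 times.

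Smaller differences were found in Igfbp5 (log2 fold change -1.61 ± 0.41, adjusted p = 0.0137), Igfbp7 (-1.27 ± 0.23, adjusted p = 0.00260), Igf2r (-1.18 ± 0.12, adjusted p = 7.63e-05) and Igf2 (-1.18 ± 0.33, adjusted p = 0.0214), all by edgeR. The Igf2r level was 69.2, 75.6, 81.5 and 61.7 CPM in liver stroma and 149, 170, 182 and 135 CPM in peritoneal stroma, between 2.16 and 2.24 times higher in the peritoneum of each mouse. Igf2 was the least even of the 8. Its peritoneal level was 4.44, 3.70 and 1.92 times the liver level in mice 1 to 3 but 0.893 times in mouse 4, and the groups overlapped. Igf1r (0.12 ± 0.09) and Igfbp3 (0.13 ± 0.15) did not pass.

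The levels of cell type markers also differed between the 2 stromal fractions. The fibroblast marker sum was between 6.53 and 14.2 times higher in the peritoneal stroma of each mouse, and the sum of 5 stellate and mural cell markers (Des, Rgs5, Lrat, Reln, Pdgfrb) between 1.87 and 5.09 times. The leukocyte and macrophage sum was at 0.758 to 0.998 times the liver level. The sum of 8 hepatocyte markers was 33.1 to 267 CPM in liver stroma and 5.08 to 14.8 CPM in peritoneal stroma, where Alb, Ttr, Cps1, Fga and Apoc3 were at or under the floor. The ratios of the 8 genes were below the fibroblast ratio of the same mouse, except for Igfbp2 in mice 1, 3 and 4 and for Igfbp4 and Igfbp6 in mouse 1. The part of cell makeup in these differences was not tested.

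Tumour cells of the liver and of the peritoneum were compared in the same way. Of the 8 genes tested, 2 passed the thresholds, both lower in the liver, against 3.52% of all tested genes. Neither had an adjusted p under 0.05, where 150 of 13074 genes tested passed on adjusted p. By DESeq2 3 of 9 members passed the thresholds and 1 passed on its adjusted p, and 1 also did in each of the edgeR fits without a filter, with library size only and with all 25 libraries. How many of all genes passed under those settings is not given here. Igfbp6 differed by -1.84 ± 0.45 on the log2 scale (adjusted p = 0.0562 by edgeR), from 0.608, 0.614, 0.719 and 0.796 CPM in the liver to 4.66, 1.76, 0.972 and 2.43 CPM in the peritoneum. Without the peritoneal tumour cells of mouse 1 it was -1.31 and still passed. In the peritoneum the Igfbp6 level of tumour cells was 0.527% to 3.53% of the stromal level, and the part of stromal RNA in it was not tested. Igfbp4 differed by -1.31 ± 0.39 (adjusted p = 0.0947 by edgeR), which fell short of the fold threshold at -0.65 without the peritoneal tumour cells of mouse 1, the library with the raised stromal markers. For Igf1 the log2 fold change of -2.06 ± 1.0 did not pass and became 0.13 without that library, whereas it passed without the peritoneal tumour cells of mouse 2 (-2.45), 3 (-2.34) or 4 (-2.40).

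Igfbp3 was higher in liver than in peritoneal tumour cells by a log2 fold change of 0.48 ± 0.10 (adjusted p = 0.0330 by edgeR), with no overlap between 2369 CPM, the lowest liver value, and 2114 CPM, the highest peritoneal value. The difference is under the fold threshold. In an edgeR fit that pairs the fractions of the same mouse, it was 0.48 with an adjusted p of 0.087. Igfbp5 was at 27.6 CPM in the liver tumour cells of mouse 4 and at 1.65 CPM in its peritoneal tumour cells, but at 7.67 and 12.1 CPM in those of mouse 2, and its log2 fold change of 1.29 ± 0.63 did not pass, although it did at 1.96 without the peritoneal tumour cells of mouse 2. Igf1r (0.03 ± 0.10), Igf2r (0.31 ± 0.35) and Igfbp7 (-0.93 ± 0.37) did not pass either. Igfbp7 passed without the liver tumour cells of mouse 2 (-1.11) or 4 (-1.04) and without the peritoneal tumour cells of mouse 2 (-1.04) or 3 (-1.19). Igf2 and Igfbp2 were not tested there, with counts too low.

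**Figure D4:**
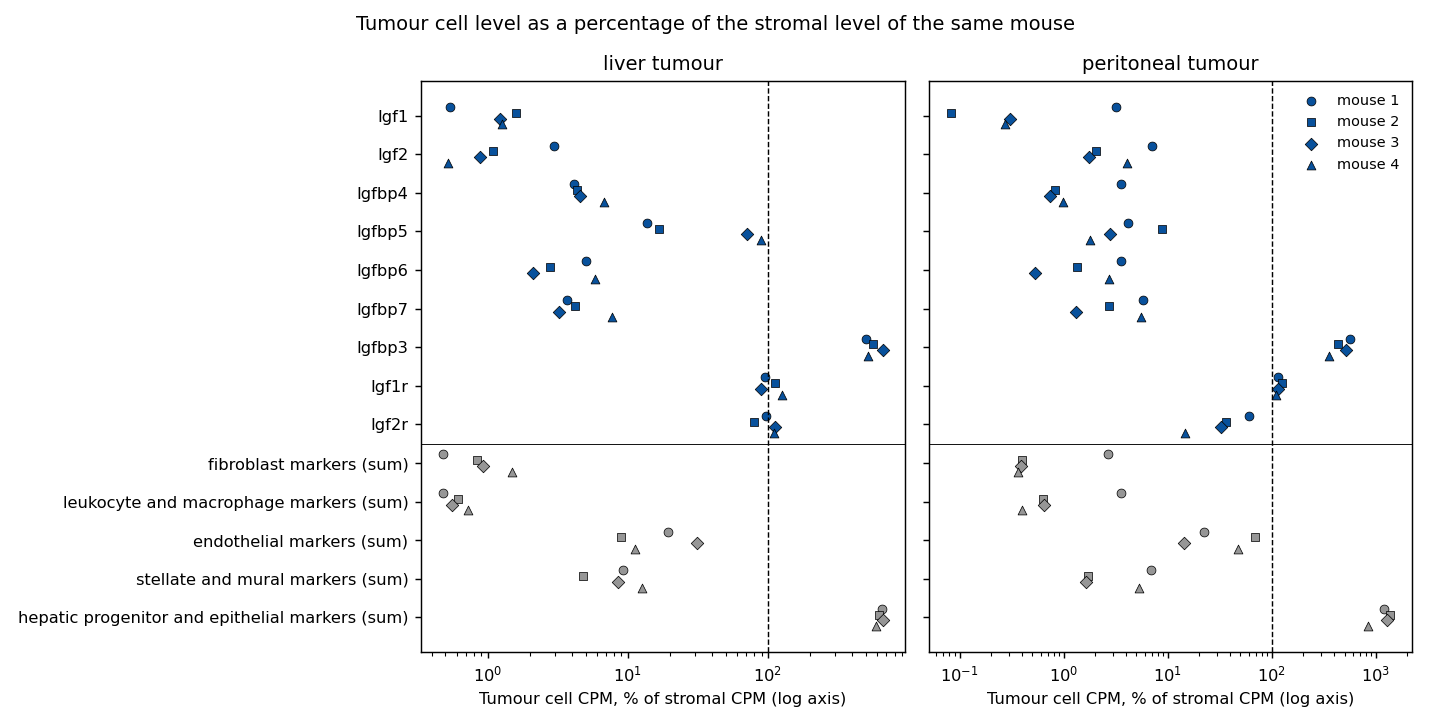
Level in tumour cells as a percentage of the level in the stroma of the same mouse (logarithmic axis, dashed line at 100%), with 1 symbol per mouse, for 9 of the genes (blue) and for the sums of marker genes (grey). Igf1 lies at 1.60% or less in the liver and reaches 3.17% in the peritoneum of mouse 1, where the fibroblast and leukocyte sums are raised as well, while Igf1r lies between 89.3% and 126%.

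Whether the organ mattered differently to tumour cells and to stroma was tested by the difference between the 2 organ effects over the 16 sorted libraries. 4 of the 10 genes passed the thresholds, against 10.6% of all tested genes, whose median difference was -0.12. For Igfbp5 the difference was 2.83 ± 0.85 on the log2 scale (adjusted p = 0.0374 by edgeR), since its mean was higher in liver than in peritoneal tumour cells (13.9 and 5.67 CPM) and lower in liver than in peritoneal stroma (39.1 and 116 CPM). It was 3.52 without the peritoneal tumour cells of mouse 2. For Igfbp4 it was 1.77 ± 0.46 (adjusted p = 0.0184), with both effects towards the peritoneum and the stromal effect the larger, and 2.51 without the peritoneal tumour cells of mouse 1. For Igf2r it was 1.42 ± 0.42 (adjusted p = 0.0362, all by edgeR). In an edgeR fit of all 25 libraries 0 of the 10 genes passed on adjusted p. Igfbp2 passed on its unadjusted p alone (adjusted p = 0.0802 by edgeR), with no more than 3 counts in any tumour cell library, so that an organ effect in tumour cells could not be measured for it, and it did not pass without the liver tumour cells of mouse 2 or 3. Without the peritoneal tumour cells of mouse 1, Igf1 (2.39) and Igfbp6 (1.5) passed as well.

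Igf1r varied little among the 16 sorted libraries. It was at 99.6, 132, 109 and 136 CPM in liver tumour cells, 108, 117, 117 and 125 CPM in peritoneal tumour cells, 105, 117, 122 and 108 CPM in liver stroma and 94.6, 94.0, 102 and 113 CPM in peritoneal stroma. Its difference between compartments was 0.09 ± 0.11 on the log2 scale in the liver and 0.31 ± 0.08 in the peritoneum (adjusted p = 0.00881 by edgeR), under the fold threshold. Igf1r was thus read at similar levels in the sorted fractions with ligand transcripts and in those nearly without them. Igf2r was at 66.6, 60.5, 92.2 and 67.9 CPM in liver tumour cells, and there its difference from stroma was 0.00 ± 0.13. In peritoneal tumour cells it was at 90.6, 61.9, 58.5 and 19.5 CPM, lower than in stroma by -1.36 ± 0.38 (adjusted p = 0.0104 by edgeR).

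In culture the question was how the dose of Ras acts on these genes in the absence of stroma. 6 of the 10 genes had enough counts, namely both receptor genes and Igfbp3, Igfbp4, Igfbp5 and Igfbp7. There a gene had to reach a log2 fold change beyond 1.5 in either direction with p under 0.01 before adjustment. In RasHIGH against BMEL WT 3 of 6 passed, all lower, against 9.65% of all tested genes. In RasLOW against BMEL WT 1 of 6 passed, against 4.40% of all tested genes, and in RasHIGH against RasLOW 2 of 6, against 2.12%. The first 2 comparisons share the BMEL WT cultures.

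Igfbp7 was at 174, 194 and 179 CPM in the 3 BMEL WT cultures, at 4.05, 19.9 and 10.1 CPM in RasLOW and at 0.337, 0.642 and 1.03 CPM in RasHIGH. The 3 groups did not overlap and followed the order of the Ras dose. The log2 fold change was -4.02 ± 0.54 in RasLOW (adjusted p = 0.0106 by edgeR) and -8.14 ± 0.35 in RasHIGH (adjusted p = 6.40e-05), a 282-fold difference. The RasLOW value was -4.74 without RasLOW replicate 2. Between the Ras populations it was -4.09 ± 0.71, with an unadjusted p of 0.000634 and an adjusted p of 0.103 by edgeR, and -3.39 without RasLOW replicate 2.

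Igfbp4 was at 30.2, 59.7 and 78.3 CPM in BMEL WT, at 50.3, 14.3 and 8.07 CPM in RasLOW and at 1.65, 2.01 and 3.41 CPM in RasHIGH. RasLOW overlapped BMEL WT, and RasHIGH lay below both. The log2 fold change was -4.61 ± 0.45 in RasHIGH against BMEL WT (adjusted p = 0.000979 by edgeR), -1.25 ± 0.65 in RasLOW against BMEL WT, which did not pass, and -3.35 ± 0.72 between the Ras populations (adjusted p = 0.166 by edgeR). The last did not pass without RasHIGH replicate 2, with an unadjusted p of 0.0101. Without RasLOW replicate 1, the culture at 50.3 CPM, Igfbp4 passed in RasLOW against BMEL WT at -2.33, and the difference between the Ras populations was -2.26. Between the Ras populations 0 of 6 members and 0 of 11962 genes tested passed on adjusted p by edgeR. Unadjusted p was under 0.05 for 2 of 6 members and for 1170 of all genes tested. On adjusted p 2 of 9 members passed by DESeq2, and 2 of 6 in an edgeR fit of all 25 libraries. The share of all genes in those fits is not given here either.

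The promoters of Igfbp7 and Igfbp4 are shown because these genes were lower together in RasHIGH, at chr5:77408046-77408295 (minus strand) and chr11:99040994-99041243 (plus strand), with the same build, length and capitals as above.
Igfbp7: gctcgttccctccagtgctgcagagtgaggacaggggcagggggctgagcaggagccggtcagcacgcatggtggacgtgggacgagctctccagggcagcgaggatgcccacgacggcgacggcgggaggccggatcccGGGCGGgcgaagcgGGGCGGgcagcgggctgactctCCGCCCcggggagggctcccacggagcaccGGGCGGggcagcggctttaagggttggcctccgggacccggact
Igfbp4: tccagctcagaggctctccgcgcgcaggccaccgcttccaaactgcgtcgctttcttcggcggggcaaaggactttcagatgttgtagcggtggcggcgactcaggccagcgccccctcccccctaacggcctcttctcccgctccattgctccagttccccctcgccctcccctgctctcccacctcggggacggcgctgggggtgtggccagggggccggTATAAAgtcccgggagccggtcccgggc
The Igfbp7 window held 4 GC boxes, of which 32.7% of all windows hold at least 1, and the Igfbp4 window held a TATA box 28 bases before the start, as 12.4% of the windows do. Neither held an AP-1 or Ets match to these letters. Both were rich in G and C, at 74.0% and 69.2%.

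Igf1r was at 286, 276 and 274 CPM in BMEL WT, at 109, 177 and 158 CPM in RasLOW and at 79.1, 99.6 and 123 CPM in RasHIGH. Each Ras culture was below each BMEL WT culture, and the Ras populations overlapped. The log2 fold change in RasHIGH was -1.50 ± 0.18 (adjusted p = 0.00197 by edgeR), which lay on the fold threshold and passed it in 5 of 14 alternatives. In RasLOW it was -0.94 ± 0.20 (adjusted p = 0.0411 by edgeR), under the fold threshold. Igf2r was at 36.9 to 80.6 CPM in RasLOW and at 92.4, 31.8 and 32.0 CPM in RasHIGH, which overlapped BMEL WT at 56.4 to 82.4 CPM.

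Igfbp3 stayed between 394 and 632 CPM in all 9 cultures. Its log2 fold change was -0.07 ± 0.17 for RasLOW and -0.06 ± 0.19 for RasHIGH over BMEL WT. Since Igfbp7 and Igfbp4 were so much lower, the share of Igfbp3 in the binding protein sum per kilobase was 47.4% ± 0.186 (SD, n = 3) in BMEL WT, 88.6% ± 2.37 in RasLOW and 98.2% ± 0.172 in RasHIGH, while that of Igfbp7 was 45.1% ± 3.0, 5.59% ± 3.78 and 0.383% ± 0.239. The sum itself was 335 ± 31.7 CPM per kilobase in BMEL WT, 175 ± 34.9 in RasLOW and 159 ± 40.6 in RasHIGH. Igfbp2 was found at 0.276, 1.2 and 1.48 CPM in BMEL WT and had no count in any Ras culture, so that its BMEL WT level was at least 7.64-fold higher than in RasLOW and 6.83-fold higher than in RasHIGH, against 3 counts per library. Igfbp5 ranged from 0.628 to 14.1 CPM over the 9 cultures with overlap between all 3 groups. Igfbp6 reached at most 0.138 CPM in a BMEL WT culture, 0.358 CPM in a RasLOW culture and 1.5 CPM in a RasHIGH culture, too few counts for the test.

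BMEL WT replicates 1 and 2 were sequenced on lane 3 and all other cultures on lane 4. Within lane 4, with 1 BMEL WT culture left, the log2 fold changes in RasHIGH were -8.10 for Igfbp7, -5.09 for Igfbp4 and -1.48 for Igf1r. In RasLOW that of Igfbp7 was -4.00. The spread behind these fits comes from the Ras cultures alone, and the lone BMEL WT culture is assumed to vary like them.

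The sorted tumour cells are set beside the cultures without a test, since sorting and culture differ in more than the site of growth. The tumour cell libraries were sequenced on lanes 1 to 3 and all Ras cultures on lane 4, so that lane cannot be told apart from these differences. Igfbp3 in tumour cells was 5.61 times the RasHIGH mean in the liver and 4.02 times in the peritoneum, and no library overlapped. Igf1r in tumour cells overlapped both Ras populations and was 0.428 and 0.419 times the BMEL WT mean. Igfbp7 in liver tumour cells was 15.2 times the RasHIGH mean, yet 0.0557 times that of BMEL WT, and overlapped RasLOW. Igfbp4 was 3.27 times the RasHIGH mean in liver tumour cells and 8.04 times in peritoneal tumour cells. The fibroblast marker sum had a median of 56.3 CPM in liver and 315.5 CPM in peritoneal tumour cells, against 1.17 CPM in RasHIGH. The part of stromal RNA in the ratios of Igfbp7 and Igfbp4 was not tested.

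The wider pathway was covered by 27 other genes, all of which were found. Their fits were not repeated without the peritoneal tumour cells of mouse 1, the library with the raised stromal markers. Between tumour cells and stroma 18 of 21 tested genes passed in the liver (6 higher and 12 lower) and 19 of 21 in the peritoneum (5 higher and 14 lower), with median log2 fold changes of -1.74 and -1.76, against 44.0% and 43.7% of all tested genes. Higher in tumour cells at both sites were the 3 RNA-binding protein genes named for their binding of Igf2 mRNA, Igf2bp1 (2.68 ± 0.16 in the liver and 3.84 ± 0.30 in the peritoneum, log2), Igf2bp2 (2.32 ± 0.12 and 3.0 ± 0.18) and Igf2bp3 (2.72 ± 0.17 and 3.64 ± 0.20), in cells whose Igf2 level was near the floor. The growth hormone receptor gene Ghr (2.58 ± 0.11 and 2.88 ± 0.13) and Stc1 (2.39 ± 0.19 and 2.98 ± 0.41), an inhibitor of PAPP-A, were also higher. Of 4 protease genes whose products can cleave IGF binding proteins, 3 were lower in tumour cells at both sites: Pappa (-7.14 ± 0.45 and -6.76 ± 0.68, from 11 and 32 counts in the tumour cell libraries), Pappa2 (-4.91 ± 0.48 and -5.76 ± 0.67, from 9 and 28 counts) and Adam12 (-1.98 ± 0.21 and -3.89 ± 0.36). The fourth, Htra1, was higher in tumour cells in the liver (1.06 ± 0.10) and lower in the peritoneum (-1.09 ± 0.34). Stc2, another inhibitor of PAPP-A, had 1 count in liver and 0 counts in peritoneal tumour cells, so that its stromal level was at least 64.4-fold and at least 39.6-fold higher against 3 counts per library.

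Between the stromal fractions 12 of 23 tested pathway genes passed, of which 2 were higher and 10 lower in liver stroma, with a median log2 fold change of -0.19, against 14.3% of all tested genes. Igfbp1, a binding protein gene of hepatocytes, was at 5.67 ± 2.14 CPM in liver stroma and had 1 count in the 4 libraries of peritoneal stroma. Igfals, the gene of the hepatocyte subunit of the circulating IGF complex, was at 0.117 ± 0.12 CPM in liver stroma, near the floor. In peritoneal stroma it was at 0.255 ± 0.196 CPM, with 27 counts against 14 in liver stroma, too few for the test. The 5 imprinted genes of the list, H19 (-1.57 ± 0.17), Plagl1 (-2.09 ± 0.14), Grb10 (-2.09 ± 0.28), Cdkn1c (-2.17 ± 0.32) and Dlk1 (-4.88 ± 0.46), were all lower in liver than in peritoneal stroma.

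In RasHIGH against BMEL WT 7 of 15 tested pathway genes passed, with a median log2 fold change of -0.21 against -0.02 over all genes tested, of which 9.65% passed. On adjusted p 3 of the 7 passed, namely Irs1, Irs2 and Grb10. The genes of the adaptors that couple the receptor to its signalling, Irs1 (-1.58 ± 0.13, adjusted p = 0.000577) and Irs2 (-1.58 ± 0.20, adjusted p = 0.00246 by edgeR), were lower, as were Grb10 (-4.45 ± 0.59), Grb14 (-4.90 ± 1.11) and Adam12 (-3.37 ± 0.68). Socs2 (2.74 ± 0.66), a feedback inhibitor of growth hormone signalling, and Stc1 (4.18 ± 0.79) were higher. Grb10 (-3.82 ± 0.43, adjusted p = 0.00640 by edgeR) was the 1 pathway gene of 15 that passed in RasLOW, against 4.40% of all tested genes.

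The genes whose levels followed each member most closely over the 25 libraries were found among 13192 others by Pearson's r of log2(CPM + 1), given as a description because the libraries of 1 compartment share their cell types. For Igf1 they were Adgrd1, Gfpt2 and Pi16 (r = 0.996 each). Igfbp6 was closest to Gas1 (0.991), Igfbp3 to Sccpdh (0.986), Igf2 to Ptgir (0.986), Igfbp7 to Thbs1 (0.970) and Igfbp4 to Mmp2 (0.965). The closest gene was less alike for Igf1r (Foxj1, 0.933), Igfbp2 (Hoxd8, 0.931), Igfbp5 (Pcdhb22, 0.908) and Igf2r (Mon2, 0.826).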

How the data were processed

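RNA was sequenced from 9 cultures and from 16 sorted fractions of 4 mice. The authors prepared poly(A) libraries, used TopHat2 to align reads to mm9, and deposited a table of raw read counts by gene with no normalization. The submitters' processing notes name FastQC, Bowtie 0.12.2 and the builds mm8 and mm10 as well, and the counting program, strand setting and annotation are not given in the sources used here. Reads of near-identical or overlapping genes may therefore be split between them.

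The software was edgeR 4.0.16 with limma 3.58.1 under R 4.3.3. Each pair of groups was fitted alone: genes were kept by filterByExpr (minimum count 10), scaled by TMM and tested by quasi-likelihood F-tests. Benjamini-Hochberg adjustment covered every gene tested, and adjusted p-values in the report come from these fits unless another fit is named. The fold and p cut-offs are those of the study, and its expression filter was not applied. The text of the study does not say whether p was adjusted, whereas its supplementary list of genes graded by Ras gives adjusted p-values. Here p was taken before adjustment, which is less strict than a call on adjusted p. The thresholds were a log2 fold change beyond 1.5 either way with p under 0.01 before adjustment in cultures, and beyond 1 with p under 0.05 in sorted cells. A standard error is the log2 fold change divided by the square root of F. The organ effects of tumour cells and stroma were compared by a contrast over the 16 sorted libraries, and comparisons that use the same libraries are not independent. Levels are CPM with TMM over 25 libraries, and exon lengths are unions of GENCODE vM1 exons on NCBIM37, which can miss untranslated ends. The steps were tested on simulated data.

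The mouse numbers pair samples, since the labels give the same animal, and same-mouse correlations of deviations ran from -0.216 to 0.287. Nothing in the labels says how the cultures were separated, so their p-values measure the spread between these samples. No 2 libraries were identical.

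The genes named are the 10 members, genes from a list of 27 others of the pathway and from 44 marker genes, and the 3 genes most correlated with each member, of which the text gives the first. The members and lists were chosen with earlier results of these data known. Alternatives were RLE or library-size scaling, DESeq2 1.42.0, other filters, adjusted p-values, all libraries in 1 fit, a replicate block and leaving out each library. A fit within lane 4 was added after seeing the data.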

Additional observations from a re-analysis of the deposited data

Results flagged for a closer look

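In 40 groups of 4 libraries, 4 had a library far from the others by Dixon's ratio, where chance alone gives about 1 in 20. Igf1 was at 6.15 CPM in the peritoneal tumour cells of mouse 1, against 0.162 to 0.648 CPM in those of the other mice. Igfbp4 was at 39.6 CPM in the same library, against 11.7 to 12.8 CPM. Igf2 was at 0.0675 CPM in the liver tumour cells of mouse 1, against 0.0279 to 0.0318 CPM, all at 3 counts or fewer. Igfbp3 was at 596 CPM in the peritoneal stroma of mouse 4, against 364 to 400.2 CPM, in the library whose progenitor and epithelial marker sum was the highest of its group at 1106 CPM. The part of other cells in these values was not tested.

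The effect of the organ differed between tumour cells and stroma, by a test of the difference itself, for Igfbp5 (2.83 on the log2 scale), Igfbp4 (1.77) and Igf2r (1.42). On adjusted p 3 of 10 members passed by edgeR, against 990 of 15331 genes tested, but 0 of 10 in an edgeR fit of all 25 libraries. Igfbp2 (4.96) passed on its unadjusted p alone (adjusted p = 0.0802 by edgeR), with no more than 3 counts in any tumour cell library, and did not pass without the liver tumour cells of mouse 2 or 3.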

How the results depend on the processing

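Over the alternatives for each fitted difference, 581 of the values for differences that had passed kept direction and call, 19 no longer passed and none reversed. With adjusted p-values the counts of members that passed became 0 for RasLOW against BMEL WT, 0 for RasHIGH against RasLOW and 0 for liver against peritoneal tumour cells. Over all genes tested, 95 of 12307, 0 of 11962 and 150 of 13074 passed on adjusted p, in the same order. By DESeq2, without a filter on low counts and within lane 4, 2 members passed in RasLOW against BMEL WT, and without the filter 5 passed between the tumour cells of the 2 organs. Leaving out 1 library at a time gave 1 to 3 members in RasLOW against BMEL WT (3 without RasLOW replicate 1), 3 to 5 in RasHIGH against BMEL WT (5 without RasHIGH replicate 3), 1 to 2 in RasHIGH against RasLOW and 1 to 5 between the tumour cells of the organs (1 without the peritoneal tumour cells of mouse 1, 5 without those of mouse 2). The shares of all genes that passed under these alternatives are not given here, and the causes were not tested.

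The replicate block, which pairs fractions of the same mouse, left the counts of members that passed at 7 between compartments in the liver, 9 in the peritoneum, 8 between stromal fractions and 2 between tumour cells, and changed no call of a member. Culture numbers share only a number: same-number correlations ran from -0.635 to 0.297, and the block left 1, 3 and 2 members.

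The values that changed sign all belonged to differences that had not passed. The log2 fold change of Igf2r between compartments in the liver was -0.07 with RLE, -0.06 by DESeq2, -0.02 with a filter at 2 CPM, -0.02 with all 25 libraries and -0.01 with the block, and that of Igf1r between tumour cells of the organs was -0.02 with library size only. With 1 library left out, Igf2r ran from -0.28 to 0.22 in RasLOW against BMEL WT and from -0.15 to 0.08 between compartments in the liver. Igfbp3 ran from -0.18 to 0.06 in RasLOW and from -0.27 to 0.05 in RasHIGH against BMEL WT, and from -0.20 to 0.13 in RasHIGH against RasLOW, where Igfbp5 ran from -1.51 to 0.30. Between tumour cells of the organs, Igf1 ran from -2.53 to 0.13 and Igf1r from -0.05 to 0.11, and the difference between the organ effects ran from -0.25 to 2.39 for Igf1. Depth limits Igf1, Igf2, Igfbp2 and Igfbp6 in cultures and Igf2 and Igfbp2 in tumour cells, where most libraries were near the floor of 3 counts.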
